A study of Homo sapiens with 6 samples.

Results

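The genes described here form a set named as subunits of the transcription factor NF-kB and its feedback inhibitors. These genes are NFKB1, NFKB2, REL, RELA, RELB, NFKBIA, NFKBIE, TNFAIP3, BIRC3 and BCL3. They were chosen by name, and every probe set whose platform annotation gave exactly 1 symbol from this list was taken. This gave 17 probe sets for 8 of the 10 genes, out of 54613 probe sets and 19775 genes on the array. BCL3 shares its 2 probe sets with MIR8085 in that annotation and BIRC3 had no probe set listed under its name alone, so neither has a value here.

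The cells were U937T:PLZF-RARa, made from the human monocytic line U937, in which tetracycline keeps the fusion gene PLZF-RARA switched off. This fusion, seen in rare cases of acute promyelocytic leukaemia, links the repressor PLZF (ZBTB16) to the nuclear receptor RARA. The 3 uninduced samples were kept in RPMI-1640 medium with serum, puromycin, G418 and tetracycline, and the 3 induced samples were washed and grown for 48 h in the same medium without tetracycline. Loss of tetracycline and gain of the fusion came together in this design and cannot be told apart. Each sample was hybridised to its own Affymetrix HG-U133 Plus 2.0 array. The labels do not say whether replicates were separate cultures or whether the line is a single clone, so the spread behind each p-value may be technical.

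NF-kB is a family of dimers that wait in the cytoplasm bound to inhibitors named IkB. Signals from cytokine and pattern recognition receptors activate the IkB kinases, the inhibitor is degraded, and the freed dimer enters the nucleus and binds kB sites in the promoters of inflammatory and survival genes. Among its targets are its own inhibitors, above all NFKBIA and TNFAIP3, which close a negative feedback loop. In monocytes and macrophages this pathway drives the inflammatory response.

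Matches to the kB consensus were searched for in the promoters of these genes. The promoters are shown for the 4 genes with called probe sets and a match. RefSeq promoter windows on GRCh38.p14 were found for 6 of the 8 genes with values, and RELB and NFKBIE were not in that table. The 120 bases before the annotated start are printed 5′ to 3′ on the strand of the gene, with matches to the kB consensus on either strand in capitals. The TNFAIP3 stretch is chr6:137867139-137867258 on the plus strand, and NFKBIA is chr14:35404750-35404869 on the minus strand. NFKB1, at the upstream one of its 2 starts, is chr4:102501239-102501358 on the plus strand, and REL is chr2:60881454-60881573 on the plus strand.
TNFAIP3: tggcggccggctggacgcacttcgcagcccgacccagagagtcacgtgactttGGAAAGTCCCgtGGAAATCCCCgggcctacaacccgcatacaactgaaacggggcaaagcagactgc
NFKBIA: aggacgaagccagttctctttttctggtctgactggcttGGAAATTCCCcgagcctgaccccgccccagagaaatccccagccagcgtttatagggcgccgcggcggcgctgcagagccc
NFKB1: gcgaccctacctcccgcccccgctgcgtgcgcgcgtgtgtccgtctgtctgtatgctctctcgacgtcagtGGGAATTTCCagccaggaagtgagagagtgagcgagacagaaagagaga
REL: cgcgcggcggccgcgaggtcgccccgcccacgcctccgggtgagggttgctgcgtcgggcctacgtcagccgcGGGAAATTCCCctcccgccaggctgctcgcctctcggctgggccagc

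Of the 6 genes with a window, 5 held a match to the kB consensus within 250 bases before a start, against 6.28% of the 27305 genes in the table. The match of NFKB1, GGGAATTTCC, was then searched by itself, so NFKB1 holds it by choice. It also stands on 1 strand of the NFKBIA and REL promoters, and 0.142% of all 35116 windows hold it. TNFAIP3 held 2 matches a few bases apart, at -67 and -55 from the start. In REL matches on the 2 strands overlapped at -47 and -46. NFKB2 held matches before 2 of its 3 starts, and RELA held none before either of its 2 starts. A match describes letters in this window and not a bound site, and no binding was measured.

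**Figure D1:**
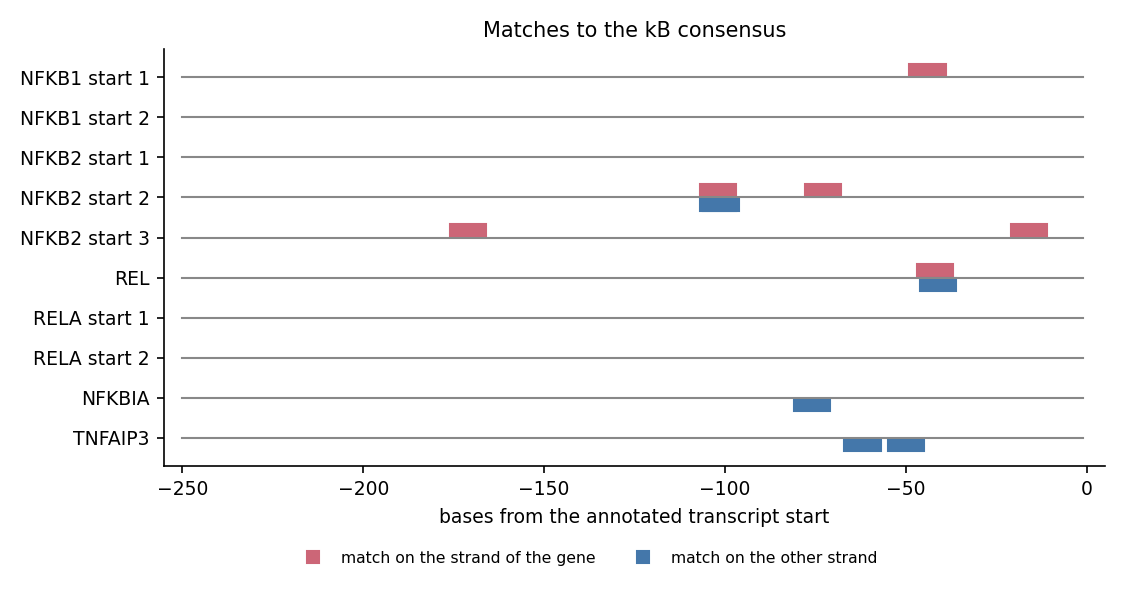
Position of each match to the kB consensus in the 250 bases before the annotated starts of NFKB1, NFKB2, REL, RELA, NFKBIA and TNFAIP3, in bases from the start on the x axis and 1 line per start. Boxes above a line are matches on the strand of the gene and boxes below it are matches on the other strand; RELA has none.

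The genes joined in the fusion did not move together, so the labels were only partly checked by them. Of 4 tested RARA probe sets 211605_s_at went from 1.87 ± 0.10 to 7.58 ± 0.17 on the log2 scale (SD, n = 3 each; limma, adjusted p = 1.90e-07), and 203749_s_at fell from 5.16 ± 0.08 to 3.99 ± 0.04 (limma, adjusted p = 1.10e-05). No call was made for RARA 203750_s_at, at -0.22, or for RARA 216300_x_at, at -0.12 (limma, adjusted p = 0.133 and 0.301). The ZBTB16 probe set fell from 5.25 ± 0.21 to 3.29 ± 0.59 (limma, adjusted p = 8.12e-04), where all induced arrays lay under the filter. Which of these probe sets lie in the part of each gene that the fusion holds was not determined. Of 14 markers of the myeloid lineage 12 had a probe set, and 8 of these passed the filter, among them PTPRC and LYZ, while CD14 and CSF1R lay below it in both groups. The 8 markers moved with the groups: 6 fell and 2 rose, with a median log2 difference of -1.08. SPI1 differed by -3.96, PRTN3 by -3.31, ELANE by -2.80 and PTPRC by 1.77. For SPI1 all induced arrays lay under the filter, at a mean of 3.16, so the size of its fall is uncertain. The part of this shift in the results below was not tested. Of the 7 markers of T and NK cells NCAM1 alone passed the filter, and the CD3 genes did not. Over the 20552 tested probe sets r was 0.996 to 0.998 within groups and 0.932 to 0.938 between them. Uninduced replicate 3 had the lowest 75th percentile, 6.92 against 7.11 to 7.18 on the other arrays. For GAPDH the 3′ control probe set exceeded the 5′ one by 0.481 to 0.530 log2 units in uninduced and 0.555 to 0.619 in induced samples; this gap, which widens as RNA degrades, moved with the groups and its part in the results was not tested. The same gap for ACTB overlapped between the groups, at 1.153 to 1.306 in uninduced and 1.296 to 1.497 in induced samples.

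All values below are log2 intensities, and a probe set entered the test where 3 or more of the 6 arrays exceeded 4, which is an intensity of 16. Of the 17 probe sets 11 were tested, from 6 genes. The test was limma, with p-values adjusted by Benjamini and Hochberg's method across the 20552 probe sets, and "rose" and "fell" are used where the adjusted p was under 0.05. Of the 11 probe sets 3 rose, 3 fell and 5 did not pass. The share that passed, 54.5%, lay below the 62.5% of all tested probe sets, of which 34.6% rose and 27.9% fell. Groups were fully separate for 6 of the 11, against 70.2% of all tested probe sets. The median absolute difference was 0.37 over the 11 and 0.40 over all tested probe sets. This order depends on the scaling. After median centring 11 of the 11 passed against 66.6% of all tested probe sets, with array weights 10 against 68.1%, and after quantile normalization 9 against 72.2%, so nothing is read from the set as a whole.

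**Figure D2:**
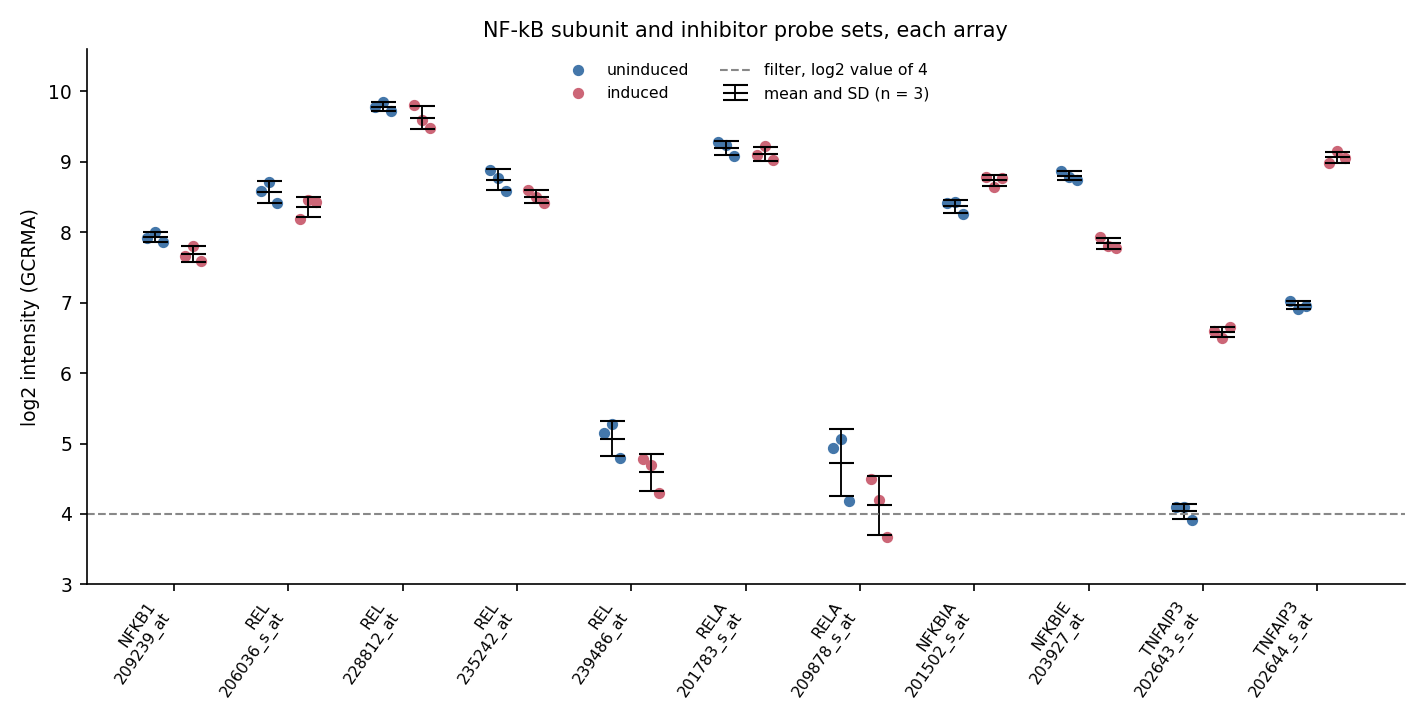
Log2 intensity (y axis) of the 11 tested probe sets on every array, uninduced in blue and induced in red, with the mean and SD of 3 arrays as bars and the filter as a dashed line. Both TNFAIP3 probe sets and the NFKBIE probe set show wide gaps between the groups, while the REL and RELA probe sets lie close together or overlap.

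TNFAIP3, known as A20, edits ubiquitin chains on signalling proteins and so switches off the receptor complexes upstream of the IkB kinases. It showed the largest change of these genes. Its probe set 202644_s_at read 7.03, 6.92 and 6.96 on the uninduced arrays and 8.99, 9.15 and 9.06 on the induced arrays. Every induced array lay far above every uninduced array. The mean rose from 6.97 ± 0.06 to 9.07 ± 0.08 (SD, n = 3 each), a difference of 2.10 with a standard error of 0.07, or 4.29-fold (limma, adjusted p = 1.32e-06). The dimmer probe set 202643_s_at read 4.10, 4.10 and 3.92 on the uninduced arrays and 6.60, 6.50 and 6.65 on the induced arrays. It rose by 2.55 with a standard error of 0.08 (limma, adjusted p = 1.08e-06), and since 1 uninduced array lay under the filter no fold is given. Of all tested probe sets 1.62% had a larger rise than 202643_s_at and 2.59% a larger rise than 202644_s_at.

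NFKBIA encodes IkB alpha, the inhibitor that is degraded and resynthesised fastest in the feedback loop. Its probe set 201502_s_at read 8.42, 8.43 and 8.26 on the uninduced arrays and 8.79, 8.65 and 8.78 on the induced arrays. The lowest induced array lay above the highest uninduced array. NFKBIA rose from 8.37 ± 0.09 to 8.74 ± 0.08 (SD, n = 3 each), a difference of 0.37 (95% confidence interval 0.19 to 0.55), or 1.29-fold (limma, adjusted p = 0.0046). This is a modest change in these samples, since 29.8% of all tested probe sets rose by more. The second NFKBIA probe set, 231699_at, lay at 2.25 in both groups, under the filter on all arrays.

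NFKBIE encodes IkB epsilon, an inhibitor that acts with slower kinetics and binds dimers of RELA and REL. It moved the other way. Its single probe set, 203927_at, read 8.87, 8.79 and 8.75 on the uninduced arrays and 7.93, 7.81 and 7.78 on the induced arrays. All induced arrays lay well below all uninduced arrays. NFKBIE fell from 8.80 ± 0.06 to 7.84 ± 0.08 (SD, n = 3 each), a difference of -0.96 with a standard error of 0.07, or 1.95-fold lower (limma, adjusted p = 3.13e-05). Of all tested probe sets 8.41% fell by more.

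The opposite moves of the IkB genes were also read within each array, where a scaling factor of the array cancels. The log2 value of NFKBIA minus that of NFKBIE was -0.45, -0.36 and -0.49 on the uninduced arrays and 0.85, 0.84 and 0.995 on the induced arrays. The size of a single such difference depends on the brightness of the probes, and only its shift is read. It shifted by 1.33 between the groups. The same difference for TNFAIP3 202644_s_at minus RELA 201783_s_at shifted by 2.19. These pairs were chosen after the values were seen, so that their groups separate follows from the choice, and no test is given.

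The subunits changed little. NFKB1, REL and RELA had 7 tested probe sets, and the mean was lower in induced samples in all 7, by 0.08 to 0.61 on the log2 scale, of which 2 passed the test. The groups overlapped in 5 of the 7. Uninduced replicate 3 was the lowest of the 3 uninduced arrays in all 7, as it was in 71.5% of all tested probe sets.

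NFKB1 encodes p105, the precursor of the DNA-binding subunit p50. Its probe set 209239_at read 7.92, 8.00 and 7.87 on the uninduced arrays and 7.67, 7.81 and 7.59 on the induced arrays. The highest induced array lay just under the lowest uninduced array. NFKB1 fell from 7.93 ± 0.07 to 7.69 ± 0.11 (SD, n = 3 each), a difference of -0.24 (95% confidence interval -0.43 to -0.05), or 1.18-fold lower (limma, adjusted p = 0.0328). The call was lost without uninduced replicate 1 (limma, adjusted p = 0.0745), without uninduced replicate 2 (0.105), without induced replicate 1 (0.0876), without induced replicate 3 (0.114) and with no filter (0.0649), while the difference kept its sign in all 15 alternatives, at -0.33 to -0.19.

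REL encodes c-Rel, a subunit with a transactivation domain that is abundant in blood cells. Of its 5 probe sets 4 were tested, and 1 of the 4 passed. The dimmest of these, 239486_at, read 5.15, 5.27 and 4.79 on the uninduced arrays and 4.79, 4.69 and 4.30 on the induced arrays. Uninduced replicate 3 and induced replicate 1 were almost level, so the groups were only just separate. This probe set fell by 0.48 (limma, adjusted p = 0.0429), a call that was lost without uninduced replicate 1 (limma, adjusted p = 0.108), without uninduced replicate 2 (0.124), without induced replicate 2 (0.0693), without induced replicate 3 (0.112) and with no filter (0.169).

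The brighter REL probe sets overlapped between the groups. REL 235242_at read 8.88, 8.77 and 8.59 on the uninduced arrays and 8.61, 8.50 and 8.42 on the induced arrays, a difference of -0.24 (95% confidence interval -0.46 to -0.02; limma, adjusted p = 0.0566). Uninduced replicate 3 was the array that overlapped, and without it the difference was -0.32 (limma, adjusted p = 0.0148). REL 206036_s_at differed by -0.21 (-0.47 to 0.04; limma, adjusted p = 0.129) and REL 228812_at by -0.16 (-0.38 to 0.07; limma, adjusted p = 0.187). The last passed without induced replicate 1, at -0.25 (limma, adjusted p = 0.0419). The fifth probe set, 206035_at, lay under the filter on all arrays, at 3.13 in uninduced and 3.12 in induced samples.

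RELA encodes p65, the main transactivating subunit of the classical pathway. The brighter of its probe sets, 201783_s_at, read 9.28, 9.23 and 9.08 on the uninduced arrays and 9.10, 9.22 and 9.02 on the induced arrays. The groups overlapped almost fully. The difference was -0.08, with a 95% confidence interval of -0.28 to 0.11 (limma, adjusted p = 0.407), so a change of 2-fold in either direction lay outside the interval. The dim probe set 209878_s_at read 4.94, 5.06 and 4.18 against 4.50, 4.20 and 3.67, a difference of -0.61 with the wide interval of -1.29 to 0.07 (limma, adjusted p = 0.106). It passed without uninduced replicate 3, at -0.88 (limma, adjusted p = 0.0232). Scaling also decided calls among the subunits. After median centring of the arrays RELA 201783_s_at, RELA 209878_s_at and REL 206036_s_at, 228812_at and 235242_at all passed as lower (limma, adjusted p = 0.00443 to 0.0451), and after quantile normalization all of these but RELA 201783_s_at and REL 228812_at did.

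**Figure D3:**
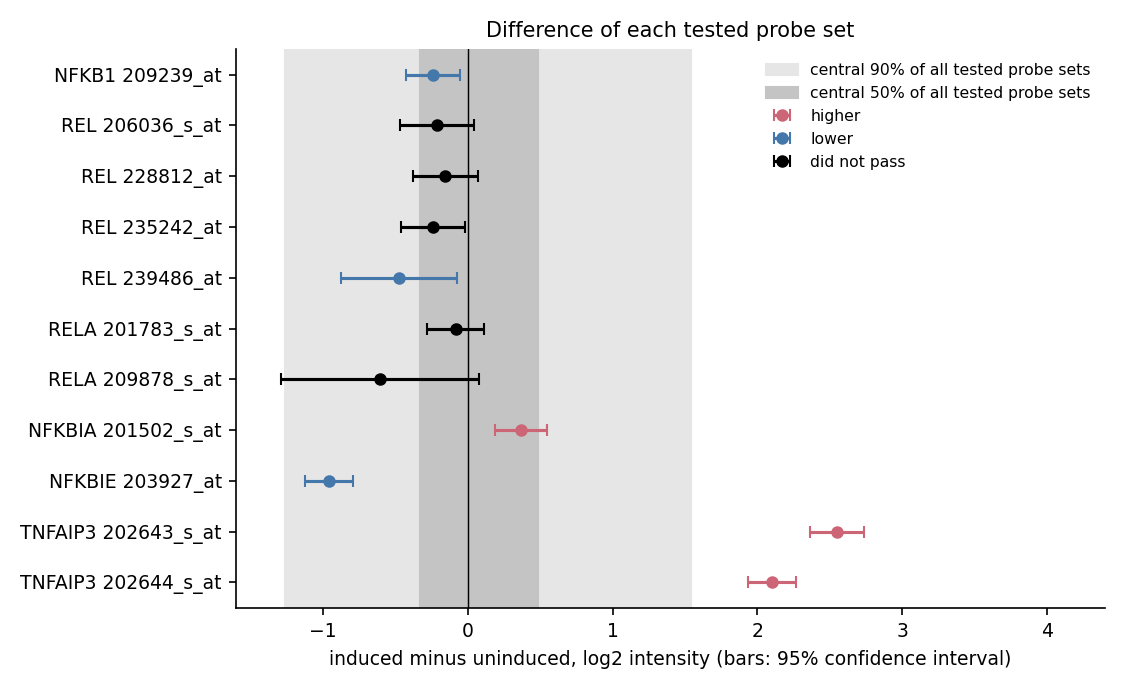
Induced minus uninduced difference in log2 intensity (x axis) of the 11 tested probe sets with 95% confidence intervals from limma, red where it rose, blue where it fell and black where it did not pass. The grey bands hold the central 50% (-0.33 to 0.49) and 90% (-1.26 to 1.54) of all tested probe sets; the TNFAIP3 probe sets alone lie outside the wider band.

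The subunits of the alternative pathway were not measurable here. NFKB2 encodes p100, the precursor of p52, and RELB its partner. The RELB probe set 205205_at read 1.93, 2.15 and 1.65 on the uninduced arrays and 2.21, 2.14 and 2.53 on the induced arrays, all under the filter. The NFKB2 probe sets 207535_s_at and 211524_at lay at 3.64 and 2.52 in uninduced and at 3.63 and 2.50 in induced samples. The remaining NFKB2 probe set, 209636_at, read 2.25, 2.13 and 2.16 on the uninduced arrays and 3.20, 2.94 and 2.51 on the induced arrays. Its groups did not overlap, with a difference of 0.70 (limma with no filter, adjusted p = 0.0475), but all of its values were under the filter and no fold is given.

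**Figure D4:**
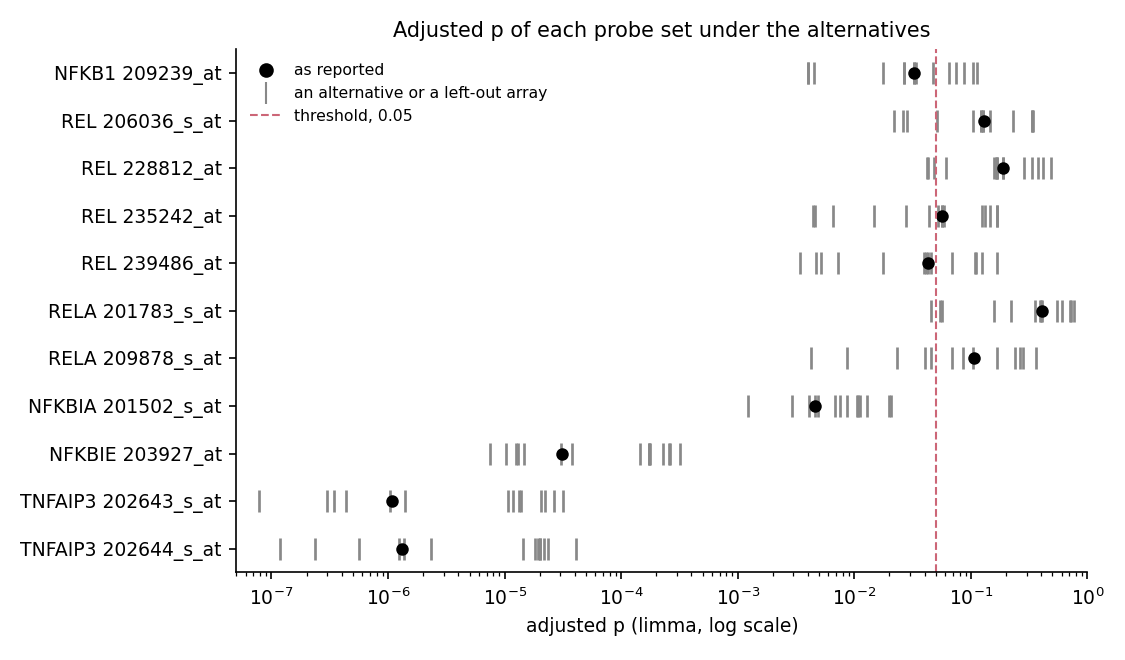
Adjusted p from limma (x axis, log scale) of each tested probe set as reported (black points) and under each alternative or with an array left out (grey ticks), with the threshold as a dashed line. All ticks of TNFAIP3, NFKBIA and NFKBIE lie below the threshold, and those of NFKB1, REL and RELA lie on both sides of it.

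The rest of the pathway was read from 5 lists with 107 genes, and the brightest tested probe set on average stood for each gene. Of these genes 68 were measured, of which 30 rose, 17 fell and 21 did not pass. That is 44.1% higher and 25% lower, against 35.8% and 30.7% of the 9836 genes tested, of which 66.5% passed in all. The median difference was 0.18 over the 68 genes and 0.02 over all genes.

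Ligands and receptors went both ways, with 4 of 10 measured genes higher and 5 lower. The TNF receptors TNFRSF1A and TNFRSF1B fell from 10.28 ± 0.15 to 9.49 ± 0.08 (SD, n = 3 each; limma, adjusted p = 2.78e-04) and from 7.71 ± 0.21 to 6.78 ± 0.09 (limma, adjusted p = 4.04e-04). TLR4, the receptor for bacterial lipopolysaccharide, was 3.40-fold lower (limma, adjusted p = 1.55e-05). The other measured receptors of the list were named after their values were seen. IL1RAP rose by 0.57 and CD40 by 0.54 (limma, adjusted p = 9.87e-04 and 0.0293). LTBR fell, with a difference of -0.33 (limma, adjusted p = 0.0392). The ligand gene TNFSF14, also called LIGHT, rose from 5.17 ± 0.57 to 7.69 ± 0.06 (limma, adjusted p = 1.57e-04), in 1 of its 2 tested probe sets, and the rise was 1.36 with both averaged. TNF itself, named after its values were seen, rose from 5.20 ± 0.37 to 6.64 ± 0.22, or 2.70-fold (limma, adjusted p = 6.08e-04).

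Of 16 measured adaptors and ubiquitin ligases 5 rose, 4 fell and 7 did not pass. MALT1, the protease of the complex that links antigen and Fc receptors to the IkB kinases, was 3.14-fold higher (limma, adjusted p = 1.48e-05). TAB2, which docks the kinase TAK1 on ubiquitin chains, was 2.10-fold higher and the ubiquitin ligase BIRC2 1.76-fold higher. IRAK1, the kinase below the IL-1 and Toll-like receptors, was 2.09-fold lower (limma, adjusted p = 1.99e-05). The adaptor MYD88, named after its values were seen, lay at 10.07 and 10.06 in the 2 groups (limma, adjusted p = 0.974).

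By their brightest probe sets the core IkB kinase genes did not pass the test. CHUK differed by 0.07 and IKBKG by 0.14, both named after their values were seen, and IKBKB by -0.18 (limma, adjusted p = 0.390, 0.218 and 0.138). The dimmer one of the 2 tested IKBKB probe sets did pass, as lower. IKBKB passed as lower in 5 of 15 alternatives. These were without uninduced replicate 3, at -0.27 (limma, adjusted p = 0.0156), and with its probe sets averaged, at -0.43 (0.0243). The others were quantile normalization, at -0.24 (limma, adjusted p = 0.0120), median centring, at -0.26 (0.00685), and array weights, at -0.29 (0.00906). The related kinase IKBKE differed by 0.17 (limma, adjusted p = 0.188), a sign that turned after quantile normalization, at -0.04. TBK1 was 1.22-fold higher (limma, adjusted p = 0.0110). MAP3K8, a kinase held in check by the NFKB1 product p105, rose from 5.05 ± 0.23 to 7.06 ± 0.07 (SD, n = 3 each), or 4.03-fold (limma, adjusted p = 1.26e-05).

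Among the other inhibitors, 18 were measured, of which 9 rose, 3 fell and 6 did not pass, with a median of 0.27. CYLD, a deubiquitinase that removes the chains on which the kinase complexes assemble, rose from 6.91 ± 0.21 to 9.02 ± 0.19 (SD, n = 3 each), or 4.29-fold (limma, adjusted p = 1.86e-05), and all 4 of its tested probe sets rose. NFKBIZ, a nuclear IkB protein, was 3.32-fold higher (limma, adjusted p = 8.77e-06). Its place in this list does not show that it inhibits NF-kB in these cells, which was not tested. RNF11, a partner of TNFAIP3, was 2.33-fold higher and PDLIM2, a ubiquitin ligase for nuclear RELA, 2.02-fold higher. The 3 genes that fell were named after their values were seen. IRAK3 fell by 0.46, TNIP2 by 0.43 and the IkB beta gene NFKBIB by 0.21 (limma, adjusted p = 0.0045, 0.0014 and 0.0191).

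Target genes of NF-kB also split. Of 18 measured genes 10 rose, 5 fell and 3 did not pass, and a further 15 with a probe set lay under the filter. PTX3, a soluble pattern recognition protein, rose from 5.26 ± 0.21 to 10.21 ± 0.32 (SD, n = 3 each; limma, adjusted p = 1.84e-06). The neutrophil chemokine CXCL8 fell from 9.11 ± 0.03 to 4.02 ± 0.24 (limma, adjusted p = 4.26e-07), where 1 induced array had dropped under the filter. Both of its tested probe sets fell, and their average gave the smaller difference of -3.76. SOD2, the mitochondrial superoxide dismutase, was 3.29-fold lower and NAMPT, an enzyme of NAD synthesis, 2.44-fold lower (limma, adjusted p = 4.18e-06 and 1.33e-05). The adhesion molecule ICAM1, also named after its values were seen, lay at 5.22 and 5.21 in the 2 groups (limma, adjusted p = 0.942). Its SD was 0.02 in each group. A spread this small was also seen under the filter, as for NFKB2 207535_s_at (SD 0.03 in each group). Whether ICAM1 was detected at all was not determined.

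**Figure D5:**
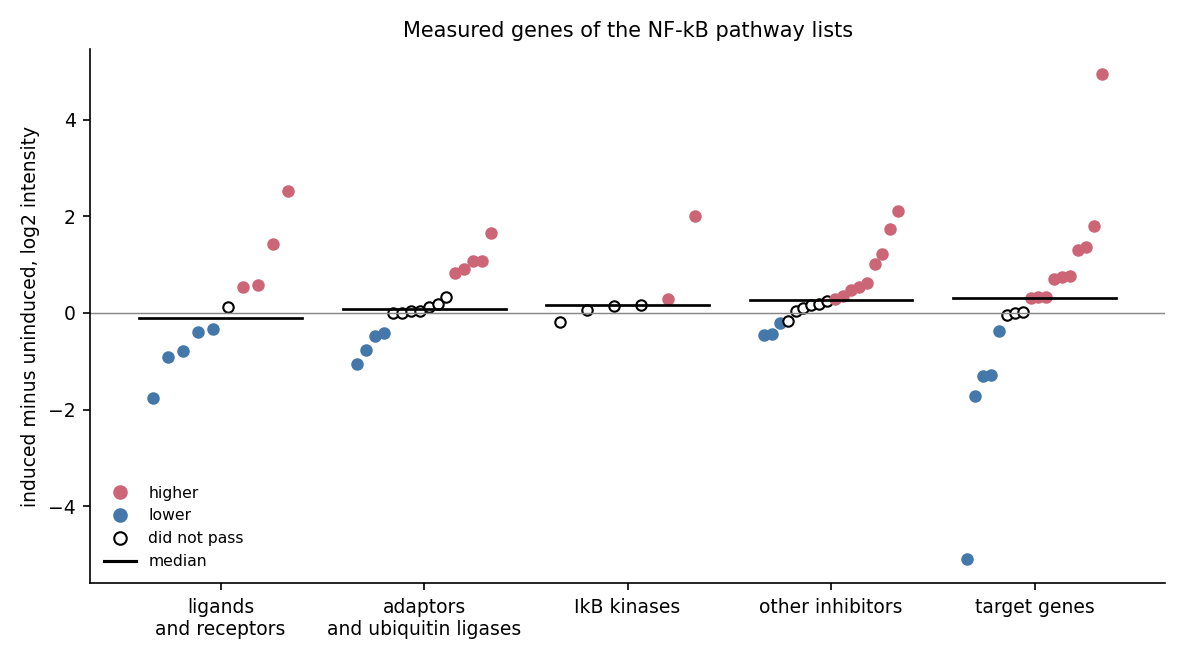
Induced minus uninduced difference in log2 intensity (y axis) of each measured gene in the 5 pathway lists (x axis), red where it rose, blue where it fell and open where it did not pass, with the median of each list as a line. Genes of every list but the kinases lie on both sides of 0 among those that passed, and CXCL8 and PTX3 mark the lower and upper end.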

How the data were processed

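The authors deposited 1 intensity per probe set and array for 6 arrays, and GCRMA is the tool that the submitters' processing notes name. The sources used here do not give its version or any scaling that followed. GCRMA draws dim probe sets to low values with little spread, so differences that start or end near the filter are compressed or exaggerated. Flat values lay at different levels, as at 2.52 and 2.50 for NFKB2 211524_at and 5.22 and 5.21 for ICAM1. Passing the filter therefore does not show that a transcript was detected. From these values log2 was taken after raising 6 values under 1 to 1, and 62 Affymetrix controls were left out. Groups were taken from the sample titles. The test was limma (version 3.58.1, R 4.3.3), two-sided and without covariates, and was tested on simulated data. Intervals are 95% limma intervals; the number of arrays limits the precision. GEO's platform annotation gave 1 symbol to 41091 probe sets. Members and gene lists were chosen with earlier results of these data known. Named genes are all members, the 4 of each list with the smallest adjusted p, RARA and ZBTB16, and others stated as named after their values were seen. The kB consensus was searched on both strands of RefSeq windows (GRCh38.p14). Alternatives were other filters, scalings, variance models, weights, floor, the replicate number as a block, and leaving out each array. Figures used matplotlib 3.10.9 in Python 3.11.15.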

Additional observations from a re-analysis of the deposited data

How the results depend on the processing

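The rises of TNFAIP3 and NFKBIA and the fall of NFKBIE kept their direction and their side of the threshold in all alternatives run. Over the 11 probe sets 129 of 157 alternative values kept both, 10 lost the call, 18 gained it and 0 changed sign. The gains and losses were all in NFKB1, REL and RELA. The number of member probe sets that fell, NFKBIE included, was 3 as reported and 1 with no filter. It was 6 after quantile normalization, 8 after median centring, 7 with array weights and 1 to 5 with an array left out. It was 1 without uninduced replicate 1, uninduced replicate 2 or induced replicate 3 and 5 without uninduced replicate 3. The cause was not tested. The median difference of all tested probe sets was 0.03 as reported, -0.06 after quantile normalization and -0.05 after median centring. Of the calls over all probe sets 45.6% and 48.1% were higher after these 2 scalings, against 55.4% as reported. With the replicate block 5 member probe sets fell. Same-numbered arrays deviated together with r = -0.17, 0.00046 and 0.18, so the numbers were not taken as pairs. With _x_at and _s_at probe sets left out, 0 member probe sets rose, since all 3 that rose end in _s_at. Over all 11968 then tested 4365 rose and 3172 fell. Of 299 alternative values of the 20 named pathway genes 293 kept direction and call, 5 gained it for IKBKB, and IKBKE turned to -0.036 after quantile normalization. Signal near the filter limits NFKB2, RELB, RELA 209878_s_at and REL 239486_at.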

Other observations

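Among the measured target genes with a RefSeq promoter window, 6 held a match to the kB consensus within 250 bases before a start, of which 5 rose and 0 fell. These were PTX3, IRF1, SDC4, CD83 and CFLAR, and the sixth, IL23A, differed by 0.01. IRF1 rose in 1 of its 2 tested probe sets and CFLAR in 4 of 6. IL23A had an SD of only 0.003 in uninduced and 0.016 in induced samples, and whether it was detected was not determined. Of the 10 targets without a match 4 rose and 4 fell, the latter being CXCL8, SOD2, NAMPT and BCL2A1. CCL5, which fell, and IER3, which rose, had no window and are in neither group. Over all 5 lists 14 genes held a match, of which 9 rose, 2 fell (TRAF3 and NFKBIB) and 3 did not pass. Of 45 without a match 18 rose and 13 fell. Of all tested genes, with or without a match, 35.8% rose and 30.7% fell. The shares among all tested genes that hold a match were not determined. NFKB1 209239_at and REL 239486_at, whose promoters hold matches, fell. The split by match was made after the values were seen, over few genes, and has no test. No match means only that these letters are not in the window.

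The 2 probe sets that the annotation gives to both MIR8085 and BCL3 lay at 1.66 to 1.69 (204907_s_at) and 2.99 to 3.06 (204908_s_at) on the log2 scale on all 6 arrays, under the filter, and name no gene here.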
